A study of Mus musculus with 8 samples.

Results

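The Cyp3a genes of the mouse encode cytochromes P450 of the CYP3A subfamily, and 8 of the 49671 genes in the liver RNA-seq table were taken as this family by their gene symbols, namely Cyp3a11, Cyp3a13, Cyp3a16, Cyp3a25, Cyp3a41a, Cyp3a41b, Cyp3a44 and Cyp3a59. The study asked how loss of the N-terminus of the lamin B receptor, Lbr, an inner nuclear membrane protein that binds lamins and also works as a sterol reductase, changes gene expression in liver in either sex. The 8 libraries came from livers of mice collected post weaning, of strain C57BL/6 in the labels and C57BL/6N in the study's methods, 2 for each genotype (WT or NT-KO) in each sex, as the labels give them. NT-KO mice carry a CRISPR/Cas9 deletion around the Lbr translation start that leaves the sterol reductase part in place, no group received a treatment, and WT mice carry no engineered allele. The labels do not say whether replicates of a group are separate animals or litter mates, so p-values measure the spread between these samples, which may be technical in part.

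CYP3A enzymes sit in the endoplasmic reticulum of hepatocytes, take electrons from cytochrome P450 reductase, the product of Por, and oxidise steroids, bile acids and a large share of drugs. Their genes are classical targets of the xenobiotic receptors PXR (Nr1i2) and CAR (Nr1i3), which bind DNA with a retinoid X receptor partner. In rodents several family members also differ between the sexes because the pituitary releases growth hormone in pulses in males and more evenly in females, and the transcription factor STAT5 carries this pattern into hepatocytes.

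On GRCm38, with positions from GENCODE, 7 of the 8 genes lie in a cluster on chromosome 5. From low to high coordinates these are Cyp3a16, Cyp3a41b, Cyp3a41a, Cyp3a44, Cyp3a11, Cyp3a25 and Cyp3a59, and all but Cyp3a59 are transcribed from the minus strand. The cluster also holds Cyp3a57 at its low end and the pseudogene Cyp3a63-ps between Cyp3a41b and Cyp3a41a, and spans 768 kb. Cyp3a16 occupies 145436309 to 145469723, Cyp3a41b 145558664 to 145584730, Cyp3a41a 145694049 to 145720136 and Cyp3a44 145773983 to 145805874. Cyp3a11 occupies 145854426 to 145879964, Cyp3a25 145977194 to 146009618 and Cyp3a59 146079257 to 146113287. Cyp3a13 stands apart at 137892932 to 137921619, 7.42 Mb below the cluster.

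The sequences upstream of these genes are shown as a description, and their part in the expression values below was not tested. Each line gives 140 bases, from 250 to 111 bases before the RefSeq start on GRCm38.p6, 5′ to 3′ on the strand of the gene. Capitals mark matches to either strand of the hexamers AGGTCA and AGTTCA, which nuclear receptors such as PXR and CAR bind in pairs, or of TGTTTAC, a forkhead factor motif.
Cyp3a16 (chr5:145469834-145469973, minus strand): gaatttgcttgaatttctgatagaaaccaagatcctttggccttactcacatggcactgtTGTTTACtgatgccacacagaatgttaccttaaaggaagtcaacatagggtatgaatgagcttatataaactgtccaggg
Cyp3a41a (chr5:145720247-145720386, minus strand): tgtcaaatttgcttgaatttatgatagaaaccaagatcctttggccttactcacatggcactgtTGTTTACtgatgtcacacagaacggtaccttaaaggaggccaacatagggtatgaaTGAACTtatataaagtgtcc
Cyp3a44 (chr5:145805985-145806124, minus strand): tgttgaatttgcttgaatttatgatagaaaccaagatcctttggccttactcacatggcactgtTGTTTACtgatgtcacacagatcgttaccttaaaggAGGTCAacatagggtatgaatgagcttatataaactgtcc
Cyp3a11 (chr5:145879965-145880104, minus strand): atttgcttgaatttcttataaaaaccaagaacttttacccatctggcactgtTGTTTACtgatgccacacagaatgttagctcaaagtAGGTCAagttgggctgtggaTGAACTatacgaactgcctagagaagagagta
Cyp3a25 (chr5:146009728-146009867, minus strand): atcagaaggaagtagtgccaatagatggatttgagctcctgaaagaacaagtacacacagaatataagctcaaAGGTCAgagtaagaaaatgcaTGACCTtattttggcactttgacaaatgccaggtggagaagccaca
Cyp3a59 (chr5:146079008-146079147, plus strand): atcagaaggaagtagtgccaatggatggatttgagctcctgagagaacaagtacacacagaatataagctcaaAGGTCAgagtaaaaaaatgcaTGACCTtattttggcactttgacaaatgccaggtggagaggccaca

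In this window Cyp3a41b has the same letters as Cyp3a41a. Over the whole 300 bases of each RefSeq promoter, from 250 before to 50 after the start, Cyp3a41b and Cyp3a41a shared 97.3% of aligned positions, Cyp3a44 and Cyp3a41a 93.0%, and Cyp3a16 and Cyp3a44 93.4%. Cyp3a11 shared 75.5% with Cyp3a16 and 69.9% to 71.5% with Cyp3a41b, Cyp3a41a and Cyp3a44. Cyp3a25 and Cyp3a59 shared 96.3% with each other and at most 55.0% with the promoters of Cyp3a11, Cyp3a16, Cyp3a41a, Cyp3a41b and Cyp3a44, and Cyp3a13 shared at most 54.4% with any of them.

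The forkhead motif TGTTTAC was found in the promoters of Cyp3a16, Cyp3a41a, Cyp3a41b, Cyp3a44 and Cyp3a11, and in 3.65% of all 32851 promoters searched. AGGTCA was found in Cyp3a44, Cyp3a11, Cyp3a25 and Cyp3a59, against 16.3% of all promoters, and AGTTCA in Cyp3a41a, Cyp3a41b and Cyp3a11, against 14% of all. Cyp3a25 and Cyp3a59 each had AGGTCA and its reverse complement, and Cyp3a11 was the one member with the forkhead motif and both hexamers. The STAT5 motif TTCNNNGAA, found in 8.3% of all promoters, and the PAR bZIP motif TTATGTAA, found in 0.938%, had no match in any of the 8. These are letter matches in a short window, and say nothing on binding. Since several of these promoters are near copies, their matches are not separate finds beside the shares over all promoters.

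The libraries held 45020377 to 64396291 counts. Lbr stood at 6.54 to 7.99 CPM (counts scaled to library size, with TMM) in the 4 WT and 12.8 to 14.0 CPM in the 4 NT-KO libraries. Since counts of a whole gene do not show the deleted stretch, this separates the genotypes but does not check the deletion. Xist was at 788 to 967 CPM in females and 0.723 to 3.21 CPM in males, where male WT 2 had the highest value, and Ddx3y, Eif2s3y, Kdm5d and Uty reached at most 0.153 CPM in females. The 5 hepatocyte markers were detected in all libraries and summed to 72026 to 108470 CPM. The 5 enterocyte markers summed to 37.1 to 89.5 CPM. Of these, 2 were detected in all 8 libraries and Sis was at 0 in all 4 groups. In bulk liver, fewer cells of a type and less RNA per cell cannot be told apart.

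Cyp3a genes are alike in sequence, and their counts depend on how reads that match several genes were treated, which is not given in the sources used here. Of the 50-base stretches in the transcripts of Cyp3a41a, 98.6% also occur in another gene, which leaves 28 that are its own, and for Cyp3a41b the share was 93.5%. The share was 30.02% for Cyp3a59, 26.8% for Cyp3a25, 26.5% for Cyp3a44, 10.7% for Cyp3a16, 6.73% for Cyp3a11 and 0% for Cyp3a13. Values of Cyp3a41a and Cyp3a41b are therefore uncertain one against the other, and their sum is also given. Their levels beside those of other genes are uncertain too. None of the members overlaps an exon of another gene in the annotation used.

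The family split into 4 genes that were found almost entirely in females and 4 that were found in both sexes. Cyp3a41b, Cyp3a41a, Cyp3a44 and Cyp3a16, enzymes known as female-predominant or perinatal forms of the family, were higher in females than in males in WT and in NT-KO liver. The main hepatic enzyme of the family, Cyp3a11, and Cyp3a25, Cyp3a13 and Cyp3a59 did not pass the test in either genotype. DEGs had to reach FDR ≤ 0.05 after Benjamini-Hochberg adjustment and to change more than 1 on the log2 scale (edgeR quasi-likelihood test, all 8 libraries in the fit). By this rule, 4 of 8 members were higher and 0 lower in WT females. Over all 13117 genes tested, 2.55% were called higher and 2.13% lower in this comparison. In NT-KO, the same 4 genes were higher and 0 lower, where 0.839% of all genes tested were called higher and 0.945% lower. Among the 4, Cyp3a41a and Cyp3a41b entered the tests only through the female libraries, so their part in these counts is no separate support for the split.

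**Figure D1:**
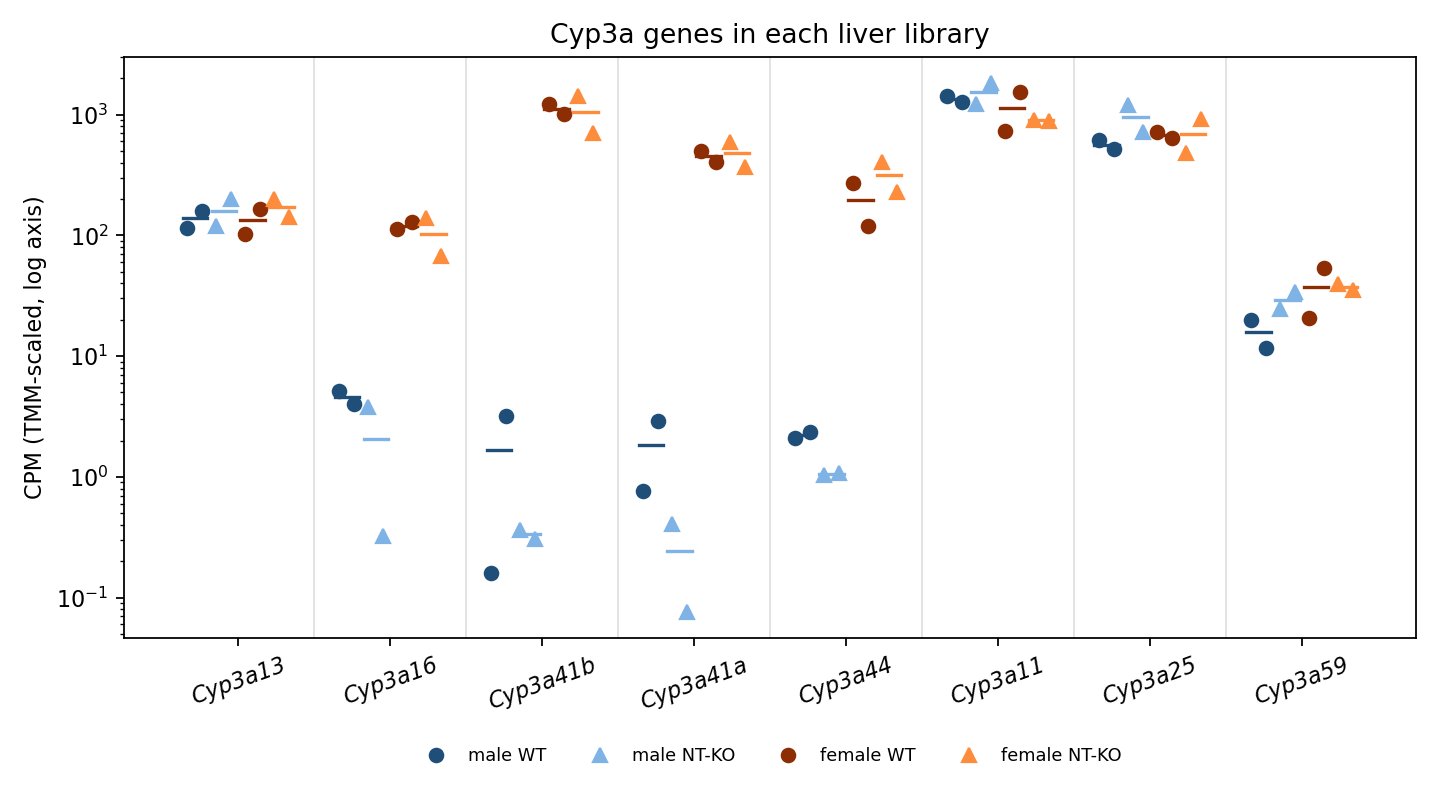
CPM of each Cyp3a gene (TMM-scaled, log axis) in each of the 8 libraries, with genes in chromosome order, circles for WT, triangles for NT-KO, blue for males, orange and brown for females, and a short line at the mean of each group of 2. Cyp3a16, Cyp3a41b, Cyp3a41a and Cyp3a44 lie at or below 5.10 CPM in all male libraries and at or above 67.3 CPM in all female libraries, while the ranges of the 4 male and 4 female libraries overlap for the other 4 genes.

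Cyp3a41b had the widest gap. Its counts were 9 and 136 in WT males, 18 and 16 in NT-KO males, 67072 and 68667 in WT females, and 80413 and 45811 in NT-KO females. In CPM this was 0.159 and 3.21, 0.366 and 0.305, 1227 and 1009, and 1412 and 701 in the same order. No male library came near a female one, and male WT 2 stood above the other 3 male libraries. Females exceeded males by a log2 fold change of 9.41 ± 1.20 (SE, FDR = 0.00502) in WT and 11.61 ± 1.33 (FDR = 0.00359) in NT-KO. The WT value was 12.76 without male WT 2 and 8.44 without male WT 1, and the NT-KO value was 11.02 without female NT-KO 1.

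Cyp3a41a, its near copy, had 43 and 124 counts in WT males, 20 and 4 in NT-KO males, 27115 and 27627 in WT females, and 33631 and 23888 in NT-KO females. These equal 0.759 and 2.93, 0.407 and 0.0762, 496 and 406, and 591 and 365 CPM. Females were again far above males in every library, and male WT 2 was again the highest male. This gave a log2 fold change of 7.96 ± 0.78 (SE, FDR = 0.00148) in WT and 10.96 ± 0.91 (FDR = 0.000831) in NT-KO. Without male WT 1 the WT value was 7.26 and without male WT 2 it was 9.21, and in NT-KO it was 12.57 without male NT-KO 1 and 10.20 without male NT-KO 2. With the counts of Cyp3a41a and Cyp3a41b summed into 1 gene it was 8.81 ± 0.97 (FDR = 0.00237) in WT and 11.38 ± 1.08 (FDR = 0.0015) in NT-KO. The ratio of Cyp3a41b to Cyp3a41a in CPM was 1.92 to 2.49 in females and, at few counts, 0.209 to 4 in males.

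Cyp3a44 showed the smallest p-values of the family in both genotypes. It had 119 and 100 counts in WT males, 51 and 57 in NT-KO males, 14924 and 8073 in WT females, and 22924 and 14980 in NT-KO females, or 2.10 and 2.36, 1.04 and 1.09, 273 and 119, and 403 and 229 CPM. Replicates lay close together in males and differed by more in females, without overlap between the sexes. Females were higher by a log2 fold change of 6.46 ± 0.50 (SE, FDR = 0.000498) in WT and 8.21 ± 0.54 (FDR = 0.000302) in NT-KO, and by 5.74 in WT without female WT 1.

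Cyp3a16, known as a fetal and neonatal enzyme, was the female-biased gene with the highest male values in 3 of the 4 male libraries, also per exon length. It had 289 and 169 counts in WT males, 188 and 17 in NT-KO males, 6166 and 8696 in WT females, and 7925 and 4404 in NT-KO females. In CPM these were 5.10 and 3.99, 3.82 and 0.324, 113 and 128, and 139 and 67.3, so that male NT-KO 2 fell below the other males. Female over male, the log2 fold change was 4.72 ± 0.85 (SE, FDR = 0.0216) in WT and 5.64 ± 0.90 (FDR = 0.0187) in NT-KO, where it was 8.31 without male NT-KO 1, 4.76 without male NT-KO 2 and 5.03 without female NT-KO 1. The call in WT was lost without any 1 of the 4 WT libraries, with FDR between 0.0609 and 0.108, and the call in NT-KO without female NT-KO 1 (FDR = 0.0921). It was also lost with robust dispersion, at FDR = 0.0692 in WT and 0.14 in NT-KO.

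**Figure D2:**
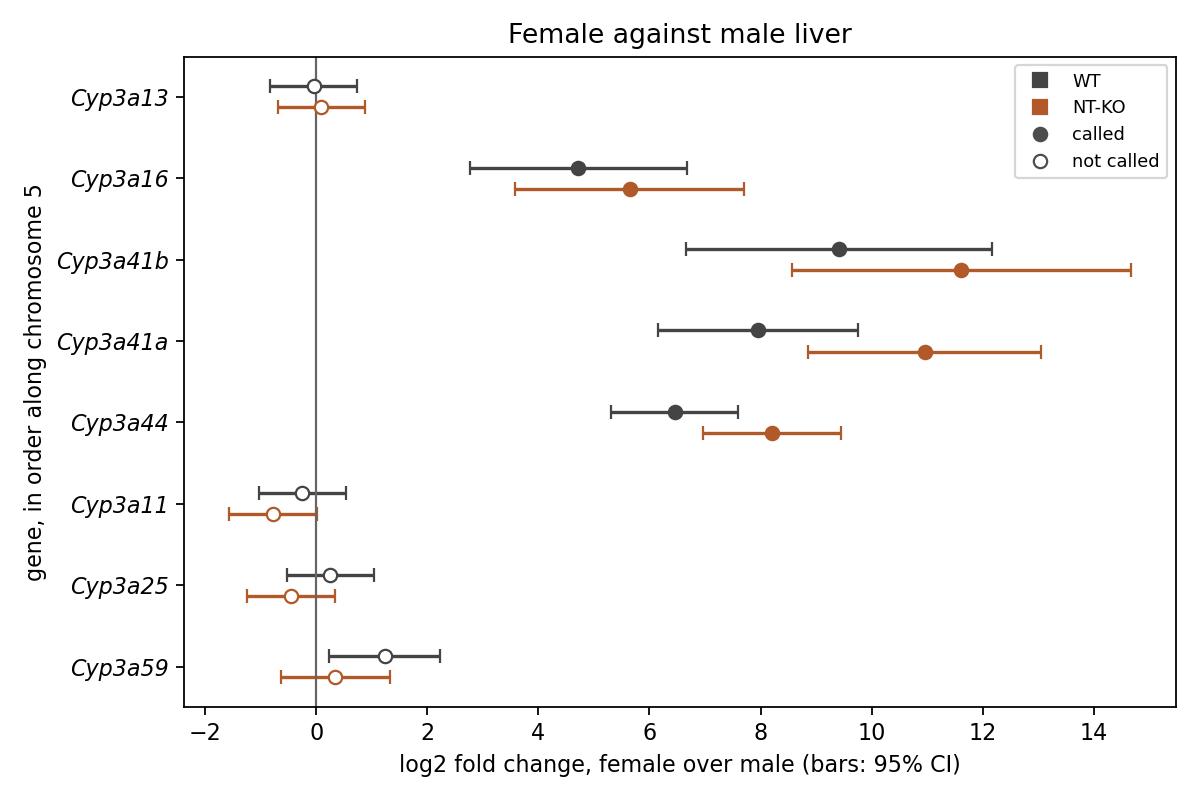
Log2 fold change of female over male liver for each Cyp3a gene, in order along chromosome 5, in WT (grey) and NT-KO (brown), with bars for the 95% confidence interval from the fit and filled points for called genes. The 4 neighbours from Cyp3a16 to Cyp3a44 lie between 4.72 and 11.61 in both genotypes, and the other 4 genes lie between -0.78 and 1.23 with open points.

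Cyp3a41a and Cyp3a41b passed the filter on low counts, at least 1 CPM in at least 2 libraries, only through the female libraries, since 1 male library reached 1 CPM for each. Cyp3a44 reached it in 4 and Cyp3a16 in 3 of the 4 male libraries. No other protein-coding gene lies between the 4 genes in the cluster, and Cyp3a63-ps is 1 of 3 pseudogenes annotated between Cyp3a41b and Cyp3a41a. Cyp3a63-ps had 5, 4, 1 and 0 counts in males and 3571, 356, 456 and 2462 in females, and its female values of 65.3 and 5.23 CPM in WT and 8.01 and 37.6 CPM in NT-KO varied widely within a genotype. It was called in WT at 8.56 ± 1.59 (SE, edgeR FDR = 0.0244), and no fold is given in NT-KO, where both male libraries were under 3 counts. Cyp3a63-ps too entered the tests only through the female libraries, so this call is no separate support for the split. Of its 50-base stretches, 21.5% also occur in another gene. Cyp3a57 stood at 0.0529 to 0.293 CPM over all libraries and was not tested. In a window of 1.6 Mb around the cluster, 13 genes outside the family were tested, and the edgeR quasi-likelihood test called 0 of them in either genotype, with 1 at an unadjusted p under 0.05 in WT and 0 in NT-KO.

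The 4 genes found in both sexes were less uniform. Cyp3a11, which oxidises testosterone and many drugs, had 1415 and 1273 CPM in WT males, 1233 and 1825 in NT-KO males, 734 and 1523 in WT females, and 899 and 888 in NT-KO females. The sexes overlapped in WT, since female WT 2 was above both male WT libraries, while in NT-KO both females were below both males. The log2 fold change of female over male was -0.25 (95% CI -1.03 to 0.53, FDR = 0.668) in WT and -0.78 (95% CI -1.56 to 0.01, FDR = 0.519) in NT-KO, neither past the test. Without female WT 1 the WT value turned to 0.18.

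Cyp3a25, an enzyme of liver and intestine, had 615 and 514 CPM in WT males, 1193 and 712 in NT-KO males, 715 and 634 in WT females, and 480 and 910 in NT-KO females. Both WT females lay above both WT males, and in NT-KO the sexes overlapped. The log2 fold change of female over male was 0.26 (95% CI -0.53 to 1.05, FDR = 0.665) in WT and -0.45 (95% CI -1.25 to 0.34, FDR = 0.808) in NT-KO. The ratio of its CPM to that of Cyp3a11 ranged from 0.39 to 1.03 over the 8 libraries, lowest in male NT-KO 2 and highest in female NT-KO 2.

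Cyp3a13, the member outside the cluster, which is known from intestine as well as liver, had 116 and 160 CPM in WT males, 119 and 200 in NT-KO males, 102 and 166 in WT females, and 200.2 and 141 in NT-KO females. The sexes had nearly the same range, 116 to 200.1 CPM in males and 102 to 200.2 CPM in females. The log2 fold change was -0.05 (95% CI -0.82 to 0.73, FDR = 0.944) in WT and 0.09 (95% CI -0.68 to 0.87, FDR = 0.975) in NT-KO. The WT value turned to 0.13 with library sizes alone, to 0.21 without male WT 2 and to 0.26 without female WT 1, and the NT-KO value to -0.23 without male NT-KO 1 and -0.18 without female NT-KO 1.

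Cyp3a59, the lowest of these 4 per exon length in every group, had 19.9 and 11.8 CPM in WT males, 24.7 and 33.9 in NT-KO males, 20.6 and 54.0 in WT females, and 39.6 and 35.1 in NT-KO females. Females were above males within each genotype, though in WT and in NT-KO the lowest female stood close to the highest male. Its log2 fold change was 1.23 ± 0.43 (SE, FDR = 0.116) in WT and 0.35 ± 0.42 (FDR = 0.906) in NT-KO. In WT it did pass with DESeq2 (FDR = 0.0166), with the likelihood ratio test (FDR = 0.0468), without the filter on low counts (FDR = 1.235e-06) and without female WT 1, whose value was below the other females (1.77, FDR = 0.0468).

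**Figure D3:**
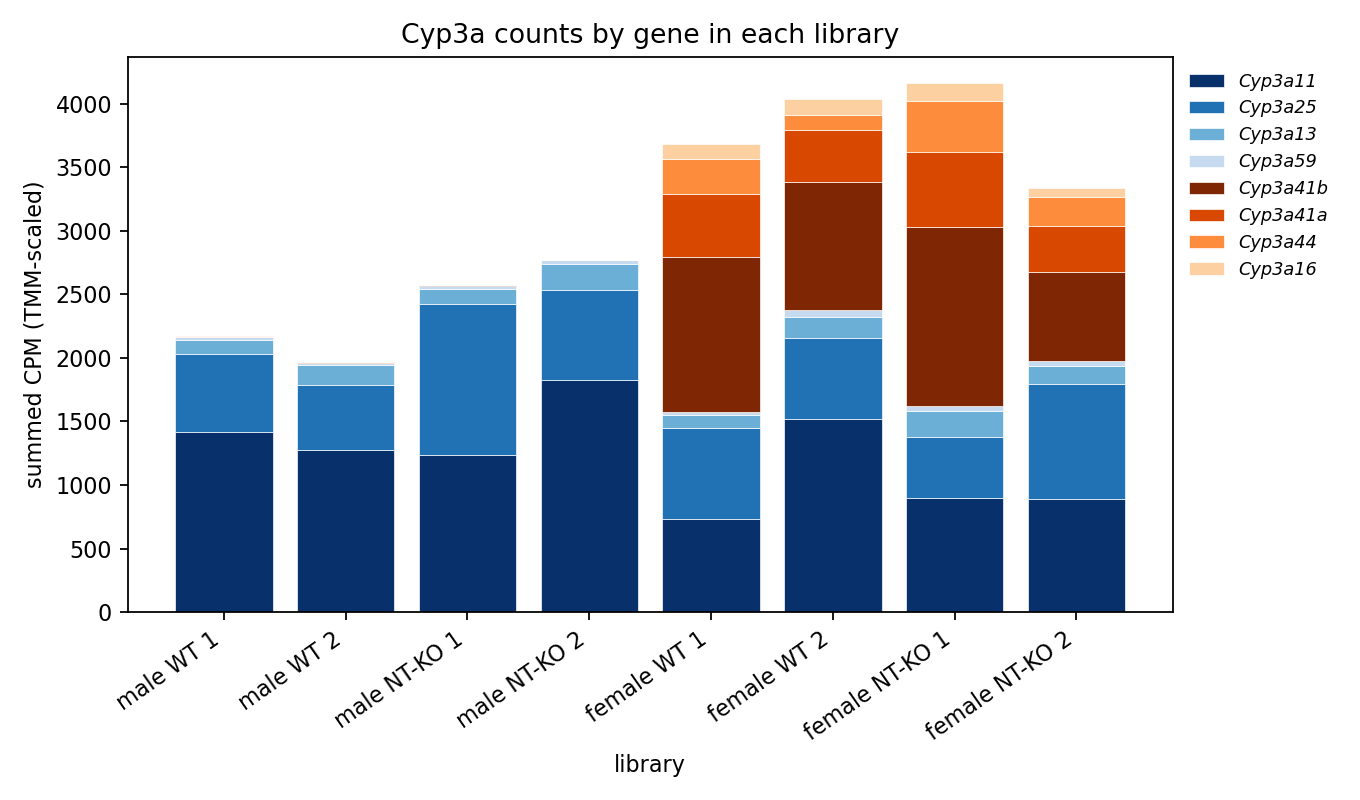
Summed CPM (TMM-scaled) of the 8 Cyp3a genes in each library, stacked by gene, with blue for the 4 genes found in both sexes and orange to brown for the 4 female-biased genes. Male bars reach 1972 to 2773 CPM and are blue almost throughout, and female bars reach 3335 to 4163 CPM with 40.8% to 61.1% in orange and brown.

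Summed over the family, males had 1972 to 2773 CPM and females 3335 to 4163 CPM, without overlap. Cyp3a16, Cyp3a41a, Cyp3a41b and Cyp3a44 made up 0.0646% to 0.633% of these counts in males and 40.8% to 61.1% in females. The other 4 genes summed to 1959 to 2771 CPM in males and 1571 to 2377 CPM in females, ranges that overlap. Cyp3a11 alone gave 47.9% to 65.8% of the family's counts in males and 19.9% to 37.7% in females.

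Levels per exon length give another order than CPM. In either genotype, the places of Cyp3a41b and Cyp3a41a in the female order are uncertain. Of their 50-base stretches, 93.5% and 98.6% also occur in another gene, and exon length takes these in full. Whether reads from such stretches were counted is not known, so the order of these 2 genes beside Cyp3a25 and Cyp3a11 is not settled. In female WT, Cyp3a41b led with 542 ± 74.7 RPKM (SD, n = 2), followed by Cyp3a25 with 324 ± 27.4, Cyp3a11 with 222 ± 110 and Cyp3a41a with 219 ± 30.9, of which Cyp3a11 and its neighbours did not differ beyond their spread. Below them stood Cyp3a44 with 99.8 ± 55.6, Cyp3a16 with 69.5 ± 6.12 and Cyp3a13 with 45.2 ± 15.3 RPKM, where Cyp3a44 overlapped Cyp3a16 within its spread, and Cyp3a59 came last with 18.6 ± 11.8 RPKM. In male WT, Cyp3a25 at 271 ± 34.1 and Cyp3a11 at 264 ± 19.7 RPKM did not differ beyond their spread and led Cyp3a13 at 46.7 ± 10.7 and Cyp3a59 at 7.92 ± 2.88 RPKM, with the female-biased genes at 0.816 to 2.63 RPKM.

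In NT-KO the order at the top did not hold beyond the spread. In NT-KO females Cyp3a41b had 512 ± 244 RPKM (SD, n = 2), Cyp3a25 had 334 ± 146 and Cyp3a11 had 175 ± 1.59 RPKM, and in the library female NT-KO 2 Cyp3a25 at 437 RPKM was above Cyp3a41b at 339 RPKM. In NT-KO males Cyp3a25 had 457 ± 163 and Cyp3a11 had 300.3 ± 82.2 RPKM, and in male NT-KO 2 Cyp3a11 at 358 RPKM was above Cyp3a25 at 342 RPKM. The place of Cyp3a11 rests on the length used. With its longest transcript of 2802 bases in place of 5093 bases of exon, it had 480 RPKM in WT males and 403 RPKM in WT females, ahead of Cyp3a25 at 282 and 337 RPKM by the same measure.

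NT-KO and WT livers were then compared within each sex. None of the 8 members was called in either sex, over both sexes or for the difference between the sexes. By the same rule 0.0152% of all genes tested were called in males, 0.00762% in females, 0.0152% over both sexes and, by FDR alone, 0.0152% for the difference between the sexes, so few genes of any kind passed this test. At an unadjusted p under 0.05 there were 2 of 8 members in males, 0 in females, 1 over both sexes and 2 for the difference, where 11.5%, 1.55%, 5.42% and 7.2% of all genes tested had such a p. DESeq2 called 0 in each of the 4 comparisons, and edgeR's likelihood ratio test called 1 in males, Cyp3a41a (FDR = 0.00926), and 0 in the other 3 comparisons. That test was run on edgeR's glmFit, the fit named in the study's methods. At the same FDR and fold change thresholds the study reported more genes in each sex than were called here, most of them in males. Without the filter on low counts, the quasi-likelihood test called 4 in males, 0 in females, 2 over both sexes and 3 for the difference, but that fit gave every gene the trended spread, with infinite prior degrees of freedom against 4.18 with the filter. The shares of all genes called by DESeq2, the likelihood ratio test and the unfiltered fit are not given, so these counts have no background to be read against.

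In males, the 4 female-biased genes had lower fitted values in NT-KO, at male levels of few counts. Cyp3a41a had a log2 fold change of NT-KO over WT of -2.92 ± 0.78 (SE) with FDR = 0.255, and Cyp3a44 of -1.07 ± 0.45 with FDR = 0.421, and these 2 had the unadjusted p under 0.05. For both, the 2 NT-KO libraries were below the 2 WT libraries. Cyp3a16 was at -1.14 ± 0.79 (FDR = 0.626) and also did not overlap, the higher NT-KO library having 188 and the lower WT library 169 counts but 3.82 and 3.99 CPM. The value rests on male NT-KO 2, with 17 counts, and was -0.26 without that library and -3.80 without male NT-KO 1. Cyp3a41b was at -2.28 ± 1.07 (FDR = 0.464), with male WT 1, at 9 counts, below both NT-KO libraries, and without male WT 2 its value turned to 1.07. Without that library Cyp3a41a was at -1.66 and Cyp3a44 at -0.98, and without male NT-KO 1 Cyp3a41a was at -4.53. Summed, Cyp3a41a and Cyp3a41b were at -2.60 ± 0.82 (FDR = 0.305).

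The library male WT 2 was also the highest male library for Xist, Sult2a1, A1bg and Sult3a1. It was the lowest male library for Cyp2a4, Acot3 and Cyp4a10, which were female-biased too. As a share of the mean over the 4 female libraries, it had 0.364% for Xist, 0.295% for Cyp3a41b, 0.63% for Cyp3a41a and 0.245% for Sult2a1. The other 3 male libraries had 0.082% to 0.149% for Xist, 0.0146% to 0.0337% for Cyp3a41b, 0.0164% to 0.163% for Cyp3a41a and 0.00825% to 0.0153% for Sult2a1. For Cyp3a44 the shares were 0.821% and 0.923% in WT males and 0.406% and 0.425% in NT-KO males, and for Cyp3a16 they were 4.56% and 3.57% in WT males and 3.42% and 0.29% in NT-KO males. What part these traces have in the male comparison was not tested.

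Genes of the immediate early response and heat shock respond to stress and handling of tissue. As a list they stood lower in NT-KO males in the same comparison. Of 16 tested of a list of 18, 13 had negative fitted values, with a median log2 fold change of -0.95 beside 0.01 over all genes tested, and 9 had an unadjusted p under 0.05, against 11.5% of all genes, though the edgeR quasi-likelihood test called 0. Hsph1, a heat shock chaperone gene, had 117 and 201 CPM in WT males, 36.7 and 48.4 in NT-KO males and 46.1 to 56.1 in females. Hspa5, the chaperone gene of the endoplasmic reticulum, had 898 and 2590 CPM in WT males, 336 and 521 in NT-KO males and 402 to 538 in females, so that WT males stood apart from the other groups in both genes and male WT 2 was the highest. Of the immediate early genes, Junb had 15.4 and 14.9 CPM in WT males and 31.2 and 13.9 in NT-KO males. Jun had 13.2 and 7.65 CPM in WT males and 8.16 and 7.60 in NT-KO males, so both overlapped between the genotypes. The part of the listed genes in the male Cyp3a values was not tested.

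The 4 genes found in both sexes had positive values in males. Cyp3a25 was at 0.76 (95% CI -0.04 to 1.55, FDR = 0.452) and Cyp3a59 at 0.88 (95% CI -0.10 to 1.87, FDR = 0.477), both with NT-KO libraries above WT libraries. Cyp3a11 was at 0.19 (95% CI -0.60 to 0.97, FDR = 0.882) and Cyp3a13 at 0.21 (95% CI -0.57 to 0.99, FDR = 0.865), with overlapping groups. Without male NT-KO 2 the value of Cyp3a11 turned to -0.13 and that of Cyp3a13 to -0.22.

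**Figure D4:**
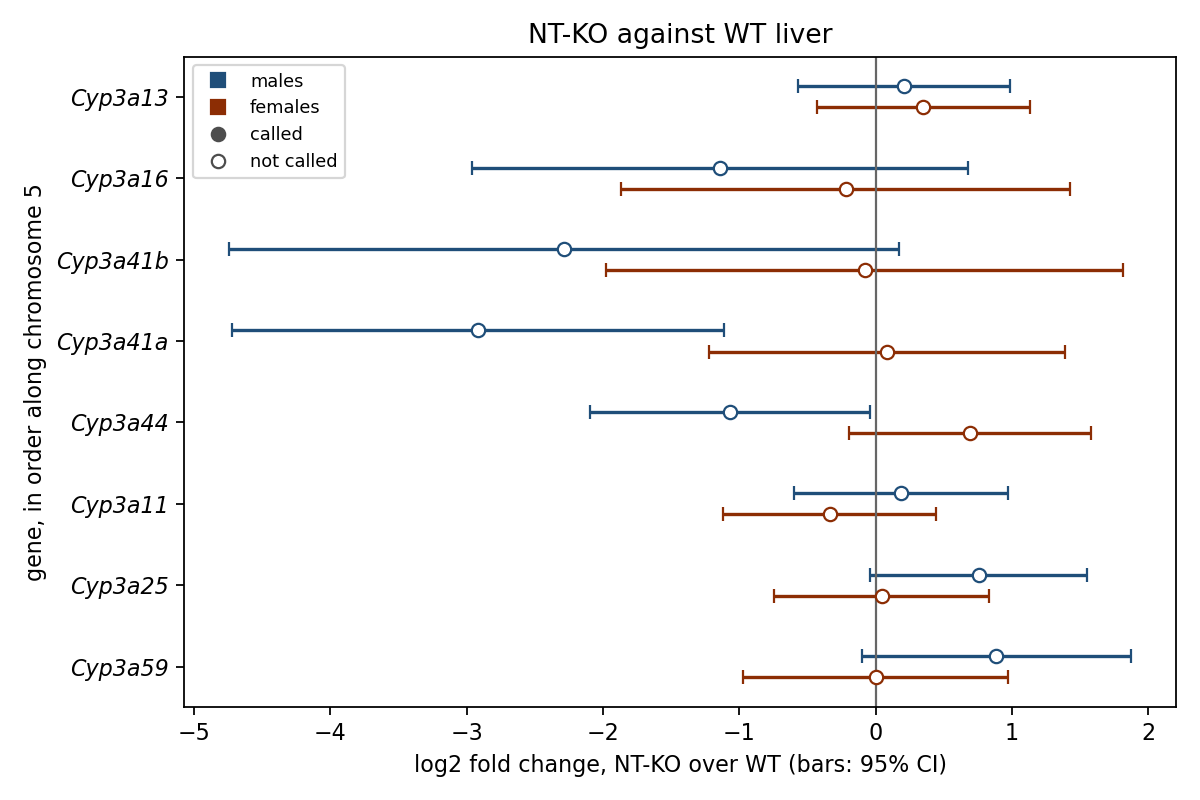
Log2 fold change of NT-KO over WT liver for each Cyp3a gene, in order along chromosome 5, in males (blue) and females (brown), with bars for the 95% confidence interval from the fit. All points are open, since none was called, and in males the values run from -2.92 for Cyp3a41a to 0.88 for Cyp3a59.

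In females, the groups overlapped for all 8 genes. Neither this nor the overlaps given for males has a share over all genes beside it. With 2 libraries against 2, even full separation has an exact permutation p of 0.333. Cyp3a44 was at 0.69 (95% CI -0.20 to 1.58), Cyp3a13 at 0.35 (95% CI -0.43 to 1.13) and Cyp3a11 at -0.34 (95% CI -1.12 to 0.45), each with FDR = 1 by the edgeR quasi-likelihood test. The other 5 lay between -0.22 for Cyp3a16 and 0.08 for Cyp3a41a. The interval of Cyp3a41b ran from -1.98 to 1.81, so changes within that range were not detectable for it. Of these small values, those of Cyp3a11, Cyp3a16, Cyp3a25, Cyp3a41a, Cyp3a41b and Cyp3a59 changed sign when 1 female library was left out, and they carry no direction.

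The difference between the sexes in the NT-KO effect, which is also the difference between the genotypes in the sex effect, was 3.00 ± 0.98 (SE, FDR = 0.61) on the log2 scale for Cyp3a41a and 1.76 ± 0.59 (FDR = 0.637) for Cyp3a44, the 2 members with an unadjusted p under 0.05. For Cyp3a41b it was 2.20 ± 1.35 (FDR = 0.743) and turned to -1.15 without male WT 2, where Cyp3a41a was at 1.75, and for Cyp3a16 the value went from 0.92 to 3.58 without male NT-KO 1. Values for the other 5 members lay between -0.88 for Cyp3a59 and 0.92 for Cyp3a16, with FDR of at least 0.769.

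Foxa3 and Dbp were the receptors and factors acting on Cyp3a genes that were called between the sexes. Of 25 tested genes of a list of 26 regulators, 1 was called higher and 1 lower in female than in male WT, where 2.55% of all genes were called higher and 2.13% lower, and 0 higher and 1 lower in NT-KO, where the shares were 0.839% and 0.945%. An unadjusted p under 0.05 was found for 10 of the 25 in WT and 1 in NT-KO, against 27% and 9.81% of all genes. Foxa3, a forkhead factor of the liver, was the lower gene, at -1.75 ± 0.26 (SE, edgeR FDR = 0.0108) in WT and -1.57 ± 0.26 (FDR = 0.0236) in NT-KO. Dbp, a PAR bZIP factor of the circadian clock, was the higher gene in WT, at 1.18 ± 0.24 (FDR = 0.0301). The median of the list was -0.02 in WT and -0.03 in NT-KO, beside 0.00165 and -0.01 over all genes tested.

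Nr1i2, encoding PXR, had 68.6 and 64.2 CPM in WT males, 90.7 and 82.9 in NT-KO males, 111 and 83.7 in WT females, and 90.7 and 111 in NT-KO females. Male WT was lowest, and the other groups overlapped. Its female over male value was 0.55 ± 0.19 (SE, edgeR FDR = 0.111) in WT. Nr1i3, encoding CAR, had 49.4 and 57.2 CPM in WT males, 144 and 58.2 in NT-KO males, 141 and 166 in WT females, and 118 and 150.0 in NT-KO females. Female WT was thus above male WT, at 1.53 ± 0.37 (FDR = 0.0512), just outside the threshold, and NT-KO males spanned the gap between them. In NT-KO males against WT males, Nr1i2 was at 0.39 ± 0.19 (FDR = 0.477), Nr1i3 at 0.92 ± 0.37 (FDR = 0.399) and Nr0b2, a repressor of nuclear receptors, at 1.63 ± 0.42 (FDR = 0.242), and no regulator was called in NT-KO against WT in either sex, with 7 of 25 at an unadjusted p under 0.05 in males and 0 in females, against 11.5% and 1.55% of all genes.

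Genes outside the family that PXR and CAR are known to induce included 11 called higher in WT females. Of 39 tested of a list of 41, 11 were called higher and 1 lower in WT females, with a median log2 fold change of 0.72, beside 2.55% and 2.13% of all genes and a median of 0.00165. In NT-KO females 5 were called higher and 1 lower, with a median of 0.42, beside 0.839% and 0.945% of all genes and a median of -0.01. The leading genes were Cyp2a4, a steroid hydroxylase, at 5.62 ± 0.35 (SE, edgeR FDR = 0.000195), Sult2a1, a bile acid and steroid sulfotransferase with 2 and 24 counts in WT males, at 9.62 ± 1.23 (FDR = 0.00502), Cyp2b13 at 9.68 ± 1.27 (FDR = 0.00577) and the drug efflux pump gene Abcb1a at 2.71 ± 0.36 (FDR = 0.00608), all in WT. Several of these are also known as sex-biased, so the list does not stand for receptor activity alone. Sult2a1 and Cyp2b13 stayed below 1 CPM in every male library, so they entered the tests only through the females. Their part in the counts called higher is no separate support for a sex difference. In NT-KO against WT, the same test called 0 in males, with a median of 0.37 and 7 of 39 at an unadjusted p under 0.05, against 11.5% of all genes, and 0 in females, with a median of 0.10 and 0 at that p, against 1.55%.

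Partners of P450 enzymes showed no call in either comparison of the sexes. Of 14 electron donors and haem synthesis genes, the edgeR quasi-likelihood test called 0, with 1 at an unadjusted p under 0.05 in WT and 2 in NT-KO, against 27% and 9.81% of all genes, and Por, the reductase gene, was at 0.60 ± 0.23 (SE, FDR = 0.149) in WT and 0.11 ± 0.23 (FDR = 0.958) in NT-KO. Por had 304 to 503 CPM in males and 435 to 589 CPM in females, which overlap. The first enzyme of haem synthesis, Alas1, was at 0.72 ± 0.35 (FDR = 0.227) and 0.99 ± 0.35 (FDR = 0.354).

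Genes of growth hormone signalling and its sex-dependent effectors included Cux2 and Prlr, called in both genotypes. Of 19 tested genes, 4 were called higher and 1 lower in WT females, against 2.55% and 2.13% of all genes, and 2 higher and 0 lower in NT-KO females, against 0.839% and 0.945%. Cux2, a female-specific repressor in liver, was at 7.66 ± 0.59 (SE, edgeR FDR = 0.000498) in WT and 6.90 ± 0.56 (FDR = 0.000808) in NT-KO, and the prolactin receptor gene Prlr at 3.21 ± 0.19 (FDR = 0.000155) and 2.00 ± 0.18 (FDR = 0.00112). Cux2 stayed below 1 CPM in every male library and entered the tests only through the females, so its calls are no separate support. In a list of 24 tested female-biased liver genes outside the family, 19 were called higher in WT females and 17 in NT-KO females, and of 24 male-biased genes 20 and 19 were called lower. These 2 lists hold genes chosen because they are known to differ between the sexes. In NT-KO against WT, no gene of these lists was called in either sex, and in males 5 of the 19, 6 of the 24 and 7 of the 24 had an unadjusted p under 0.05, against 11.5% of all genes. In males the 24 female-biased genes had 13 positive and 11 negative fitted values, with a median log2 fold change of 0.11. The 24 male-biased genes had 8 positive and 16 negative values, with a median of -0.28, beside 0.01 over all genes tested.

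Other features of the libraries differed between the sexes in WT, though the B cell and clock values below overlapped between the sexes in NT-KO. The 5 B cell markers summed to 3.80 to 6.55 CPM in WT males, 9.03 to 51.0 in NT-KO males, 21.1 to 21.8 in WT females and 8.03 to 11.8 in NT-KO females. In WT, 3 of 5 were called higher in females, against 2.55% of all genes. The 5 red cell markers summed to 445 to 947 CPM in WT males, 370 to 372 in NT-KO males, 180 to 185 in WT females and 170 to 320 in NT-KO females. In WT, 4 of 5 were called lower in females, against 2.13% of all genes. The log2 difference of Dbp over Arntl, genes of opposite clock phase, was 2.76 and 2.90 in WT males, 5.06 and 5.20 in NT-KO males, 6.62 and 6.91 in WT females, and 4.80 and 6.62 in NT-KO females, lowest in WT males. In NT-KO, where 0.839% of all genes were called higher and 0.945% lower in females, 0 of 5 B cell markers were called. An unadjusted p under 0.05 was found for 3 of the 5 B cell markers, against 9.81% of all genes. Of the 5 red cell markers, 1 was called lower in females.

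The 5 Kupffer cell markers summed to 123 to 221 CPM in males and 232 to 275 CPM in females, and the 5 markers of sinusoidal endothelium to 89.0 to 128 CPM in males and 141 to 161 CPM in females, in both cases without overlap of the sexes. All 5 markers of each had positive female over male values in both genotypes, with 0 called. An unadjusted p under 0.05 was found for 2 and 4 of 5 in WT, against 27% of all genes, and for 0 in NT-KO, against 9.81%. Sums of stellate cell markers, at 197 to 292 CPM in males and 233 to 266 in females, and of cholangiocyte markers, at 26.8 to 49.1 and 34.7 to 60.2, overlapped between the sexes. Of all genes tested, 2.55% were called higher and 2.13% lower in WT females, and 0.839% and 0.945% in NT-KO females. Beside these shares, 2 of 16 clock genes were called higher and 3 lower in WT females and 0 in NT-KO females. Of 16 immediate early and heat shock genes, 0 were called higher and 3 lower in WT females, namely Hspa1b, Hsph1 and Hsp90aa1, and 0 in NT-KO females. The part of these features in the Cyp3a values was not tested.

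Likeness of pattern over the 8 libraries was described by Pearson's r of log2 CPM, with no test. The genes most like Cyp3a41a were A1bg (r = 0.992), 9030619P08Rik (0.991), Rtn4 (0.989), Sult2a1 (0.986) and Eci3 (0.985), all higher in females, and 163 genes outside the family had r above 0.9. The 8 points fall into a male and a female set. The genes most like Cyp3a11 were Taf4b (r = 0.960), Psmc1 (0.943), Zfyve26 (0.934), Gm6505 (0.925) and Cyp2c29 (0.922), and 7 genes had r above 0.9. Cyp2c29, a drug-metabolising P450 and a known target of CAR, averaged 1441 CPM in males and 834 CPM in females.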

How the data were processed

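RNA from livers was made into libraries with the Illumina TruSeq RNA kit and sequenced. Per the labels and the study's methods, the authors trimmed reads with cutadapt, aligned them to GRCm38 with STAR 2.6.1a and counted them per Ensembl gene with featureCounts. The deposited values are these counts, whole numbers with no normalization. Strand settings and the handling of reads that match several genes are not given in the sources used here. Columns were matched to samples by the labels, and 0 were unused. Of 49671 gene IDs, 49326 matched GENCODE on GRCm38 and 345 did not, 26 of them among tested genes.

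From the counts, a gene entered the tests if 2 or more libraries had 1 CPM or more, leaving out rRNA, miRNA and mitochondrial genes, with edgeR 4.0.16 in R 4.3.3 (TMM scaling, 1 mean per group, quasi-likelihood test, Benjamini-Hochberg adjustment over 13117 genes). Every p and FDR in the text is from this fit unless another tool is named. The standard error is the log2 fold change divided by the square root of F, and intervals use the same spread, shared by the 4 groups. RPKM is CPM per kilobase of exon. DESeq2 1.42.0 and the other alternatives are described in the closing section. Replicates of each group differed by more than sampling noise, with chi-square per degree of freedom of 112 to 278. With 2 libraries against 2, exact permutation gives no p below 0.333, so none was used.

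The 8 members and all gene lists were chosen with earlier results of these data known. Named are the members, other Cyp3a genes, sex and genotype checks, Nr1i2, Nr1i3, Por, Dbp and Arntl, at most 4 genes per list and comparison with the smallest p, and the 5 genes most like Cyp3a11 and Cyp3a41a. Promoters came from RefSeq, identities from global alignment with Biopython 1.88, and plots from matplotlib 3.10.9.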

Additional observations from a re-analysis of the deposited data

How the results depend on the processing

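Refits used other tests (DESeq2 and edgeR's likelihood ratio test), other scaling (RLE, or library size only), other filters (filterByExpr, or no filter beyond 1 count), robust dispersion, the replicate block, the libraries compared alone, Cyp3a41a summed with Cyp3a41b, and 1 library fewer, where a lone library is assumed to vary like the other groups. Thresholds were also set to FDR 0.01 or to no minimum fold change. The calls of Cyp3a41a, Cyp3a41b and Cyp3a44 between the sexes held in both genotypes under each of the refits, and the number of members called in these 2 comparisons was 3 to 5. For NT-KO against WT, the likelihood ratio test called 1 member in males, and the fit without the filter called 4 in males, 2 over both sexes and 3 for the difference between the sexes. That unfiltered fit took in 29724 genes and estimated infinite prior degrees of freedom, against 4.18 in the fit reported, so it gave every gene the trended spread with no gene-specific part, and its p-values do not reflect how far each gene's own replicates differed. For the likelihood ratio test the cause was not tested. The number called was 0 under all other alternatives. Shares of all genes called in the refits are not given, so the counts of members have no background there.

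Same-numbered replicates had deviations that correlated at -0.00665 in males and 0.023 in females, so the numbers do not pair the samples. The replicate block left 4 members called in each comparison of the sexes and 0 in the others.

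With library sizes alone, the fold change of Cyp3a59 in females turned to -0.0235 and that of Cyp3a13 between the sexes in WT to 0.13, and without the filter that of Cyp3a59 in females to -0.0115. With libraries left out, uncalled values changed sign, and the cause was not tested. For NT-KO against WT in males the ranges were -0.13 to 0.44 for Cyp3a11, -0.22 to 0.54 for Cyp3a13 and -3.26 to 1.07 for Cyp3a41b. In females they were -0.77 to 0.28 for Cyp3a11, -0.84 to 0.21 for Cyp3a16, -0.49 to 0.43 for Cyp3a25, -0.30 to 0.39 for Cyp3a41a, -0.67 to 0.34 for Cyp3a41b and -0.53 to 0.86 for Cyp3a59. Over both sexes they were -0.29 to 0.23 for Cyp3a11, -1.66 to 0.49 for Cyp3a41b and -0.43 to 0.17 for Cyp3a44. For the difference between the sexes they were -0.96 to 0.0948 for Cyp3a11, -0.19 to 0.58 for Cyp3a13 and -1.15 to 3.18 for Cyp3a41b. Female over male, they were -0.87 to 0.18 for Cyp3a11 and -0.44 to 0.26 for Cyp3a13 in WT, and -0.23 to 0.52 for Cyp3a13 in NT-KO. With Spearman's rho, 1 of 5 genes most like Cyp3a11 and 1 of 5 most like Cyp3a41a remained, and with a prior count of 0.5 5 of 5 did.

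With 2 libraries a group, the standard errors of the members ran from 0.339 to 1.07 in males and 0.339 to 0.824 in females for NT-KO against WT, which bounds the changes these data could show.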
